A study of Mus musculus with 5 samples.

Results

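Imprinted genes were measured in mouse pituitaries at e12.5, in littermate embryos with and without the epithelial deletion of Itgb1, the gene for integrin beta 1. The genes were chosen by name as a list of 43 known imprinted mouse genes, Ndn among them. Of these, 31 had a row among the 20097 gene symbols of the deposited table, 20 listed as expressed from the paternal and 11 from the maternal allele. The other 12, which include H19, Meg3, Peg3, Mest and Ube3a, are not analysed here. Of the 31, 9 were listed as of restricted imprinting, which does not hold in every tissue. They are Cd81, Tssc4, Copg2, Ppp1r9a, Grb10, Gnas, Kcnk9, Rasgrf1 and Inpp5f. The allele given for a gene is thus a label and was not measured in these glands. The knockout group held 2 libraries, numbered 13 and 16, of the genotype Itgb1 f/f; Pitx1-cre. The control group held 3 libraries, numbered 9, 10 and 12, of the genotype Itgb1 f/f, so floxed alleles were shared by all 5 libraries. All embryos were on a B6;129 background. Pitx1-cre acts in the oral ectoderm and the pituitary epithelium that comes from it, so other cells of a dissected gland keep Itgb1. Total RNA was depleted of ribosomal RNA and sequenced from strand-specific libraries, per the labels' protocols.

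Imprinted genes are expressed from the copy inherited from a single parent, because methylation laid down in the egg or sperm marks a control region near each cluster. Many of them act on fetal growth and on the number of progenitor cells, and several, such as Dlk1, Nnat and Gnas, are well known from the pituitary and other endocrine glands. These libraries give the summed level of both alleles, so no value below says which allele was read.

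The promoters of the 3 imprinted genes on which the comparison turns most are shown here, since their CpG positions are where imprinting marks can be carried. Plagl1 and Ndn were the paternally expressed genes with the lowest p-values, and Nnat had the highest level per kilobase. The sequences are those of RefSeq on the build GRCm38.p6, from 250 bases before to 50 bases after the start of the gene, on the plus strand, at chr10:13090582-13090881 for Plagl1, chr7:62348027-62348326 for Ndn and chr2:157559828-157560127 for Nnat. Capitals mark each CpG.
Plagl1: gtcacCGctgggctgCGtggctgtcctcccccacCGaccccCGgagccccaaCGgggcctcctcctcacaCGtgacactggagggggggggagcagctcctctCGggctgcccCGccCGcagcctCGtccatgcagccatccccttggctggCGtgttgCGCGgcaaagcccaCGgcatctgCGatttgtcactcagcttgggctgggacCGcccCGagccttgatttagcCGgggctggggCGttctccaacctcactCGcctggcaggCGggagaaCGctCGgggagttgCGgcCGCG
Ndn: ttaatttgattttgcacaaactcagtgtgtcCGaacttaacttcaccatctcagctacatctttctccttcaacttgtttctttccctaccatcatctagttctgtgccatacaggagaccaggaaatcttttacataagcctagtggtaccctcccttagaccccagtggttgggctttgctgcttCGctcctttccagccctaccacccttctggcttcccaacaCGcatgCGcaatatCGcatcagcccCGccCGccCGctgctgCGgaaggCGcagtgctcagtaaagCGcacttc
Nnat: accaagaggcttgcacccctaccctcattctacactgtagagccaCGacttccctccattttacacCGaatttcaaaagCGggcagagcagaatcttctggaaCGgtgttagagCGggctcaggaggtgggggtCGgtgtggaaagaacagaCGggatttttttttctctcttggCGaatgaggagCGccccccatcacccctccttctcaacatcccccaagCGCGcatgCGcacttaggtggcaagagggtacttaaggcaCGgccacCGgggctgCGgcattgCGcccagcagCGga
The window of Plagl1 held 26 CpG, that of Nnat 17 and that of Ndn 11, and the CpG of Ndn lay mostly towards its start site. A RefSeq promoter was matched for 27 of the 31 genes, with 41 windows in all. The median window of the imprinted genes held 12 CpG, against 7 over all 32851 promoters of the table. The hexamer TGCCGC, which the imprint-protecting zinc finger protein ZFP57 binds when it is methylated, was searched on both strands and overlaps no other motif searched. It was present in 8 of the 41 windows (19.5%), against 11.6% of all promoters. It occurred once in the windows of Plagl1 and Nnat, and its letters were not in the window of Ndn. No methylation or binding was measured here.

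The libraries were not of equal kind, and knockout 16 stood apart. Over the listed genes, knockouts 13 and 16 held 5507288 and 4480809 reads, against 5445240 to 6143263 in the controls. Receptor genes of the olfactory and vomeronasal families, which are silent in most tissues, carried 0.4718 and 1.4965 tags per kilobase in knockouts 13 and 16, against 0.16 to 0.39 in the controls. Longer regions had more tags, with a Spearman rho across genes, which are no replicates, of 0.726 in knockout 13 and 0.941 in knockout 16, against 0.680 to 0.760 in the controls. Levels below are therefore given as scaled tags, the deposited tags per 10000000 divided by a TMM factor per library, and again after the tags expected from the receptor genes were taken off. Itgb1 itself was at 340.3 and 105.9 scaled tags in the libraries labelled knockout 13 and 16, against 449.2, 428.2 and 601.5 in controls 9, 10 and 12, a log2 change of -1.39 (SE 0.49, limma, adjusted p = 0.767). On the deposited scale its order turned for the library labelled knockout 13, with 446.36 tags in it and 186.36 in knockout 16, against 272.73, 426.36 and 430.91 in the controls. Its region covers the whole gene and not only the deleted part.

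Most imprinted genes were at a lower level in knockout 16 and near the control level in knockout 13. On scaled tags 26 of the 31 had a negative log2 change, and the median was -0.58, against -0.21 over the 12014 genes with a mean level of at least 20 and 0 over all genes tested. With the receptor-gene background taken off the medians were -0.48 and -0.16, and 26 of the 31 were again negative. The libraries differed: relative to the median of all genes, the median imprinted gene stood at -0.03 in knockout 13 and -1.12 in knockout 16, where genes with a mean of at least 20 stood at 0.01 and -0.48. Every log2 change below is knockout minus control relative to the median gene, which itself differed by 0.04.

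No imprinted gene passed an adjusted p under 0.05 in limma, and neither did any other of the 19200 genes (0.0% lower). At an unadjusted p under 0.05, 3 imprinted genes were lower, namely Plagl1, Ndn and Magel2, where 0.964% of all genes were lower. All 3 are listed as paternally expressed, as are 20 of the 31. None of the 31 was higher at an unadjusted p under 0.05, where 1.03% of all genes were. The quasi-likelihood test of edgeR called 0 of all genes and put Plagl1 alone among the 31 lower at an unadjusted p under 0.05, where 0.49% of all genes were. DESeq2 called 25 lower genes (0.13%), none of them among the 31, most of which, Ndn included, it gave no adjusted p. It had Plagl1 and Ndn lower at an unadjusted p under 0.05, where 0.552% of all genes were. Fewer cells of a type and less RNA per cell would both lower a level in these glands, and they cannot be told apart.

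**Figure D1:**
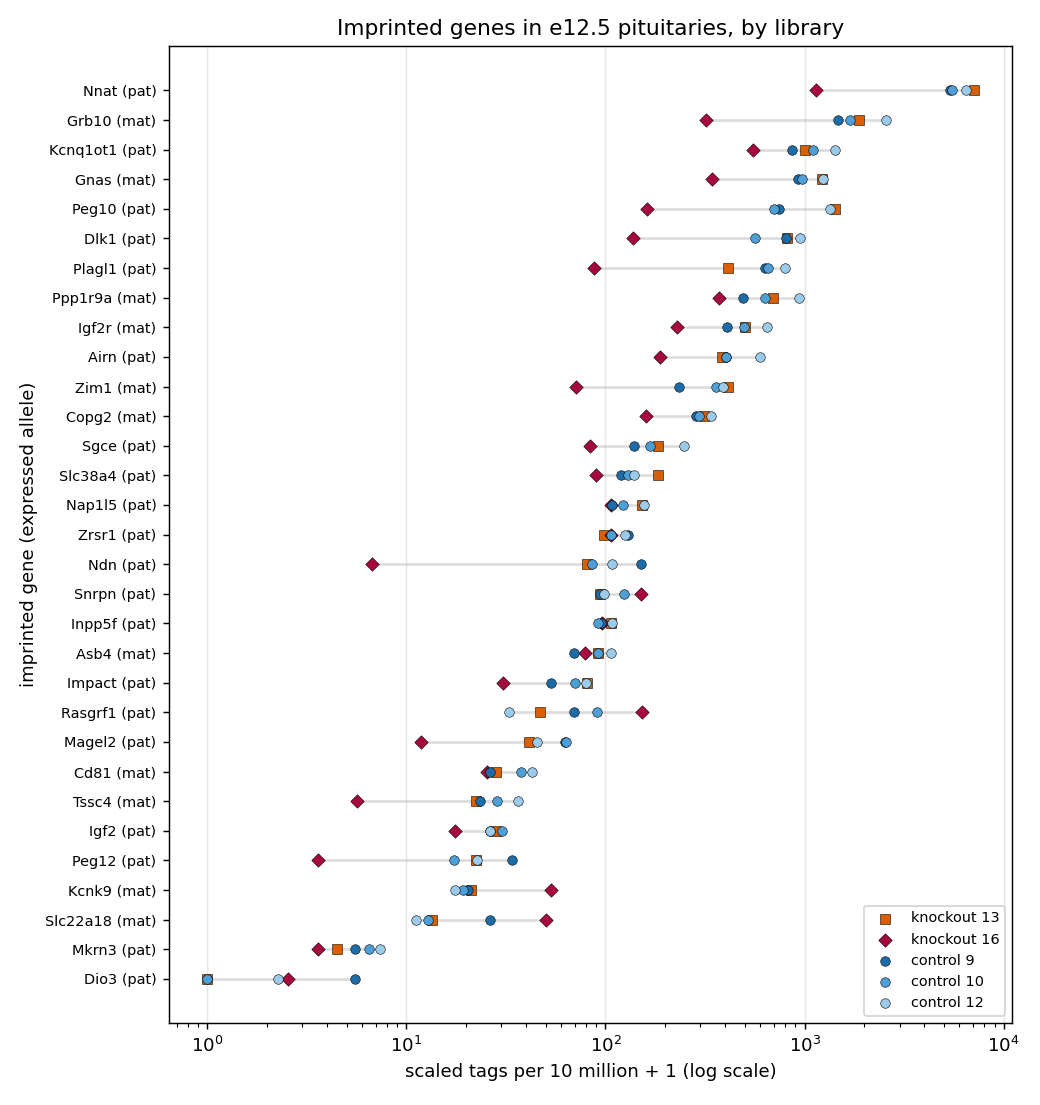
Level of the 31 imprinted genes in each library, as scaled tags per 10000000 plus 1 on a log axis, ordered by control mean, with the expressed allele in brackets (pat, paternal; mat, maternal). Knockout 16 (diamonds) lies left of the other libraries in most rows, by the widest gap for Ndn at 5.68, while knockout 13 (squares) mostly lies among the controls (circles).

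Plagl1 encodes a zinc finger transcription factor that slows proliferation and regulates other imprinted genes. Its region spans mm9 chr10:12811394-12851501. It was at 409.6 scaled tags in knockout 13 and 86.2 in knockout 16, against 634.8, 651.0 and 795.7 in controls 9, 10 and 12. Both knockout libraries were below every control. The log2 change was -1.91 (SE 0.56, limma, unadjusted p = 0.00713, adjusted p = 0.767). With background taken off, the levels were 343.7 and 91.7 in knockouts 13 and 16, against 580.5, 580.7 and 598.7 in the controls, whose mean was 586.6 ± 10.4 (SD, n = 3). Its log2 change was then -1.72, with an unadjusted p of 0.0117 and an adjusted p of 0.830. On the deposited scale knockout 13 lay within the controls, at 537.27 tags (95% Poisson interval 494.82 to 582.39) and with 151.82 in knockout 16, against 385.45, 648.18 and 570.00 in controls 9, 10 and 12. The position of knockout 13 thus depended on the scaling, and that of knockout 16 did not among these 3 scales.

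Ndn encodes necdin, a MAGE family protein that restrains growth in neurons after they leave the cell cycle. It is a gene without introns, counted over mm9 chr7:69493963-69494813. It was at 79.7 scaled tags in knockout 13 and 5.68 in knockout 16, against 149.7, 84.9 and 106.6 in controls 9, 10 and 12. Both knockouts were below every control, knockout 13 by little and knockout 16 by far. The log2 change was -2.30 (SE 0.82, limma, unadjusted p = 0.0186, adjusted p = 0.767), and a 2-sided exact permutation test, with 10 ways to choose 2 of 5 libraries, gave p = 0.1, the smallest it can give. The region is short, so Ndn had little expected background, 0.4% of its tags in knockout 13 and 12.7% in knockout 16, against 0.2% to 0.4% in the controls. With it taken off and the TMM factors estimated anew, Ndn stood at 69.1 and 8.72 in knockouts 13 and 16. Controls 9, 10 and 12 were then at 140.3, 77.3 and 80.9. The change was -1.89 (SE 0.77, unadjusted p = 0.0403). Knockout 16 held 11 reads of Ndn, or 10 deposited tags with a 95% Poisson interval of 4.99 to 17.89, which does not reach the interval of any control. Knockout 13 held 104.55 deposited tags (86.31 to 125.49), above the 90.91, 84.55 and 76.36 of the controls, though all 4 intervals overlapped.

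**Figure D2:**
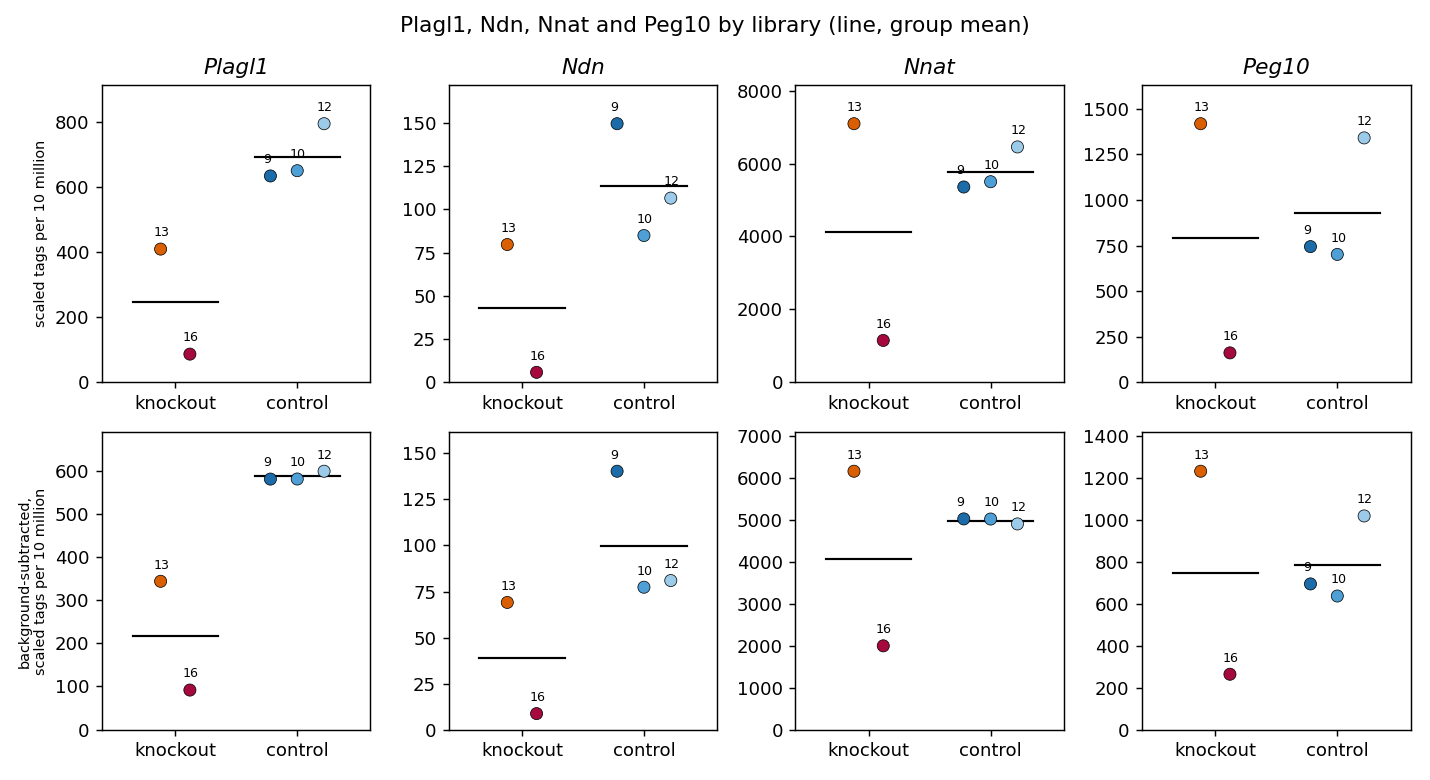
Plagl1, Ndn, Nnat and Peg10 by library, as scaled tags per 10000000 (top) and with the receptor-gene background taken off (bottom); points are libraries with their numbers, and lines are group means of 2 knockouts and 3 controls. For Plagl1 and Ndn both knockouts lie below every control, while for Nnat and Peg10 knockout 13 lies above every control and knockout 16 below.

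The other genes of the Prader-Willi/Angelman cluster on mouse chromosome 7 were Magel2, Peg12, Mkrn3 and Snrpn, all paternally expressed. Magel2, a MAGE protein that assists protein recycling from endosomes, was at 40.2 scaled tags in knockout 13 and 10.8 in knockout 16, against 61.4, 62.1 and 44.4 in controls 9, 10 and 12. Both knockouts were below every control, with a log2 change of -1.39 (unadjusted p = 0.0315). Without the background they were 33.8 and 13.3, against 56.1, 55.4 and 33.2, so that knockout 13 lay among the controls, and the unadjusted p was 0.0722. Peg12, a relative of the Frat proteins of Wnt signalling, was at 21.5 scaled tags in knockout 13 and 2.59 in knockout 16, against 32.9, 16.4 and 21.6 in controls 9, 10 and 12. Only knockout 16 was below the controls, on 5 reads, and 60.5% of them were expected as background. Mkrn3, a RING finger protein known as a brake on puberty, was below 7 scaled tags in every library, at 3.47 and 2.59 in the knockouts against 4.50 to 6.35 in the controls. The median log2 change of the 5 genes was -1.39 on scaled tags and -1.11 with background taken off, with library medians of -0.47 in knockout 13 and -2.35 in knockout 16 on scaled tags.

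Snrpn, which encodes a splicing protein abundant in neurons, went the other way on scaled tags. It was at 92.9 in knockout 13 and 149.8 in knockout 16, against 92.8, 122.4 and 97.7 in controls 9, 10 and 12, so only knockout 16 was outside the controls, above them. Its counted region is 156918 bp long, and 89.1% of its tags in knockout 16 and 60.8% in knockout 13 were expected as background, against 35% to 71.7% in the controls. The log2 change was 0.15 on scaled tags and -0.41 with background taken off. Over a shorter region of Snrpn, of 21856 bp, it was -0.57, with 46.3 and 24.5 scaled tags in knockouts 13 and 16, against 43.3, 52.0 and 53.1 in controls 9, 10 and 12. A direction for Snrpn was therefore not fixed by these data.

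**Figure D3:**
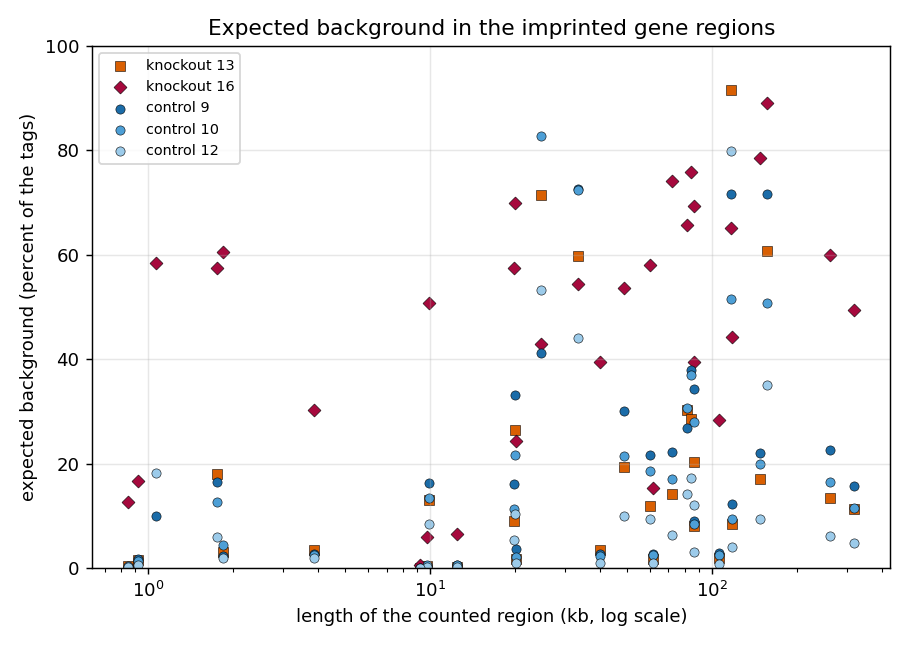
Share of each imprinted gene's tags expected as background from the receptor genes, in percent, against the length of its counted region on a log axis, by library. In knockout 16 (diamonds) the share is above 50% for many regions, up to 89.1% for Snrpn, and it is lowest for Nnat at 0.7%; short regions with few reads, such as that of Peg12 at 60.5%, also have a high share.

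On distal chromosome 7, Igf2 and Cd81 lay among the controls in knockout 13. Igf2, the fetal growth factor, was at 27.0 scaled tags in knockout 13 and 16.5 in knockout 16, against 25.4, 29.2 and 25.4 in controls 9, 10 and 12. Cd81, a tetraspanin of the cell surface, was at 27.0 and 24.3 in knockouts 13 and 16, against 25.4, 36.5 and 41.9 in the controls. In both genes only knockout 16 was below every control, and 50.7% and 69.9% of its tags there were expected as background. Tssc4, a maternally expressed gene whose protein helps to assemble the splicing machinery, was at 21.5 scaled tags in knockout 13 and 4.65 in knockout 16, against 22.5, 27.4 and 35.5 in controls 9, 10 and 12. Both knockouts were below every control, although knockout 13 nearly reached control 9, and the log2 change was -1.40 (unadjusted p = 0.0503). Slc22a18, a transporter-like membrane protein, was at 12.47 and 49.1 scaled tags in knockouts 13 and 16, against 10.1 to 25.4 in the controls. Knockout 16 was above every control and knockout 13 among them, with 42.9% of the tags in knockout 16 and 71.5% in knockout 13 expected as background, against 41.3% to 82.7% in the controls. The log2 change was 0.70, and 1.29 with background taken off.

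In the Dlk1-Dio3 cluster on chromosome 12, Dlk1 was abundant and Dio3 nearly absent. Dlk1 encodes a membrane protein of the Notch ligand type that marks many fetal endocrine progenitors. It was at 810.9 scaled tags in knockout 13 and 136.8 in knockout 16, against 808.5, 564.3 and 949.3 in controls 9, 10 and 12. Knockout 13 lay among the controls and knockout 16 below them, and the log2 change was -1.22 (unadjusted p = 0.0899). Less background, the levels were 702.3 and 226.2 in knockouts 13 and 16, against 755.8, 512.4 and 720.5 in the controls. Dio3, the enzyme that inactivates thyroid hormone, had 0 tags in knockout 13 and control 10, where a count of 0 has an upper 95% bound of 3.35 deposited tags. It had 1.55 scaled tags in knockout 16, against 4.50 and 1.27 in controls 9 and 12.

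Growth regulators of other clusters were likewise lowest in knockout 16, with knockout 13 among the controls or just below them. Grb10, an adaptor protein that dampens insulin receptor signalling, was at 1877 scaled tags in knockout 13 and 319.1 in knockout 16, against 1478, 1688 and 2577 in controls 9, 10 and 12. Igf2r, the receptor that clears IGF2, was at 501.1 and 226.7 in knockouts 13 and 16, against 407.2, 496.7 and 643.4 in the controls. In both, which are maternally expressed, knockout 13 lay among the controls and only knockout 16 was below them. Airn, the paternal non-coding RNA that silences Igf2r from the opposite strand, was at 384.7 scaled tags in knockout 13 and 186.4 in knockout 16, against 402.8, 403.6 and 593.9 in controls 9, 10 and 12. Both knockouts were below every control for Airn, and the log2 changes of Airn, Igf2r and Grb10 were -0.81, -0.62 and -1.30. The regions of Airn and Igf2r share 27196 bp, and the table gives the plus strand for all regions, so reads in the shared stretch cannot be assigned to either.

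Nnat, Peg10 and, once background was taken off, Gnas had the knockouts on opposite sides of the controls. Nnat encodes neuronatin, a small membrane protein of the endoplasmic reticulum in neuroendocrine cells, and was at 7096 scaled tags in knockout 13 and 1145 in knockout 16, against 5358, 5503 and 6458 in controls 9, 10 and 12. Peg10, a gene derived from a retrotransposon and needed in the placenta, was at 1419 and 160.6 in knockouts 13 and 16, against 744.1, 701.3 and 1341 in the controls. Gnas, which encodes the stimulatory G protein alpha subunit and is imprinted in few tissues, was at 1227 and 341.9 in the knockouts, against 929.8, 975.2 and 1235 in the controls. Nnat and Peg10 were above every control in knockout 13 and below every control in knockout 16 on both scales, and Gnas was so with background taken off. The 2 knockouts averaged below the controls with log2 changes of -1.05 for Nnat, -0.93 for Peg10 and -0.72 for Gnas, and unadjusted p-values of 0.183, 0.256 and 0.220. Without knockout 16 all 3 turned positive, at 0.25, 0.63 and 0.19.

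The other genes of the Peg10-Sgce cluster on chromosome 6 were close to the controls in knockout 13. Sgce, the epsilon subunit of the sarcoglycan complex, was at 182.3 scaled tags in knockout 13 and 82.6 in knockout 16, against 137.7, 167.1 and 247.5 in controls 9, 10 and 12. Ppp1r9a, the actin-binding protein neurabin, was at 696.5 and 371.3 in knockouts 13 and 16, against 489.6, 629.1 and 939.1 in the controls. Asb4, a subunit of ubiquitin ligases, was at 90.8 and 77.5 in the knockouts, against 68.9, 90.4 and 105.3 in the controls. Knockout 13 lay among the controls in all 3, and knockout 16 was below them for Sgce and Ppp1r9a but not for Asb4. Peg10 and Sgce share a bidirectional promoter in mouse, yet Peg10 stood above the controls in knockout 13 where Sgce did not, and whether they differed was not tested. Zim1, a maternally expressed zinc finger gene beside Peg3, was at 412.4 and 70.2 in knockouts 13 and 16, against 233.6, 359.8 and 389.6 in controls 9, 10 and 12. Copg2, a coat protein of Golgi vesicles beside Mest, was at 311.2 and 159.6, against 283.0, 294.0 and 337.6. Knockout 16 was the lowest library for both, and knockout 13 was the highest for Zim1.

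The 7 imprinted genes that lie outside the large clusters had a median log2 change of -0.05, Plagl1 included. Slc38a4, an amino acid transporter, was at 181.6 scaled tags in knockout 13 and 88.3 in knockout 16, against 118.3, 128.7 and 138.3 in controls 9, 10 and 12, so the knockouts again lay on either side. Inpp5f, a phosphoinositide phosphatase, was at 106.0 and 94.5 in knockouts 13 and 16, against 94.3, 90.4 and 106.6 in the controls. Impact, a regulator of translation under amino acid shortage, was at 79.7 and 29.4, against 52.4, 69.4 and 78.7 in the controls. Impact was below the controls in knockout 16 and just above them in knockout 13, while Inpp5f did not leave their range in either on scaled tags. With background taken off, Inpp5f was at 65.9 and 40.2 in knockouts 13 and 16, against 55.0, 52.1 and 67.1 in the controls. Knockout 16 was then below every control for Inpp5f. Rasgrf1, an activator of Ras in neurons, was at 45.7 scaled tags in knockout 13 and 151.8 in knockout 16, against 68.9, 89.5 and 31.7 in the controls, and background made up 91.5% and 65.2% of its tags in the knockouts and 51.6% to 79.9% in the controls. Kcnk9, a maternally expressed potassium channel, was the only gene of the 31 with both knockouts above every control, at 20.1 and 52.2 scaled tags in knockouts 13 and 16, against 19.5, 18.3 and 16.5 in controls 9, 10 and 12. Its log2 change was 0.78 (unadjusted p = 0.143), and background was expected to make up 59.7% and 54.4% of its tags in the knockouts and 44.0% to 72.7% in the controls.

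Kcnq1ot1, Nnat, Nap1l5 and Zrsr1 each lie inside another gene, and their longest listed regions are far longer than the imprinted transcripts. RefSeq on GRCm38 gives 83437 bp for Kcnq1ot1, a long non-coding RNA that silences its cluster, but its longest region was 318989 bp and a shorter one 82637 bp. Over the shorter region it was at 890.7 scaled tags in knockout 13 and 207.2 in knockout 16, against 651.0, 933.5 and 1303 in controls 9, 10 and 12. The log2 change was -1.15 there and -0.61 over the longer region, where the levels were 1002 and 548.9 against 862.4, 1098 and 1416. In knockout 16 the shorter region held 37.3% of the tags of the longer one, against 89.1% in knockout 13 and 75.7% to 92.4% in the controls. Nnat kept its order over its shorter region of 1610 bp, with 6409 and 1036 scaled tags in knockouts 13 and 16, against 4941, 5002 and 5869 in the controls. Zrsr1, a paternal relative of a splicing factor subunit, had both knockouts below every control over its longer region, at 97.0 and 105.9 scaled tags in knockouts 13 and 16 against 128.8, 105.9 and 124.4 in controls 9, 10 and 12. Knockout 16 and control 10 were alike there as printed, and over the shorter region of 3692 bp the groups overlapped, at 13.8 and 8.35 against 13.4, 18.2 and 22.8. Nap1l5, of the nucleosome assembly protein family, was at 151.8 and 105.3 over its longer region, against 106.3, 121.4 and 154.8, and held at most 5 reads in any library over its own 1094 bp. Levels of Zrsr1 and Nap1l5 over the longer regions are therefore mostly reads outside the RefSeq gene.

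Read over all 31, both knockouts were below every control for 7 imprinted genes on scaled tags (Plagl1, Ndn, Magel2, Mkrn3, Tssc4, Airn and Zrsr1), or 22.6%, where this held for 6.85% of all genes. Of the 7, 6 are listed as paternally expressed, as are 20 of the 31. Among them Mkrn3 held 5 reads in each knockout, against 3, 6 and 5 in controls 9, 10 and 12. Zrsr1 overlapped the controls over its shorter region. Both knockouts were above every control for Kcnk9 alone, where 8.38% of all genes were. After background was taken off, 6 remained below, without Magel2, where 7.64% of all genes were. On the deposited scale, knockout 13 was below every control for none of the 7. It was above every control there for Ndn, Tssc4, Airn and Zrsr1, so its position in this count depended on the scaling. Taken alone on scaled tags, knockout 13 was below every control for 7 of the 31, where 16.4% of all genes were. It was above for 6 of the 31 (Zim1, Peg10, Nnat, Impact, Slc38a4 and Kcnk9), where 20.8% were. Knockout 16 was below for 24 of the 31, where 39.7% of all genes were, and above for 4, where 43.8% were. It was below for 25 with background taken off, where 39.3% were. On the deposited scale Plagl1, Ndn and Nnat stayed below every control in knockout 16, but Gnas, Igf2r and Airn did not. The share below in knockout 13 alone was thus closer to that of all genes than the share in knockout 16. These shares of all genes are not matched for level. Of 12014 genes whose mean level reached 20, most of the 31 included, 1037 were below every control in both knockouts on scaled tags. Their median stood at -0.48 in knockout 16, below that of all genes. Their share below in knockout 16 alone was not counted, so an excess over genes of like level was not tested.

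**Figure D4:**
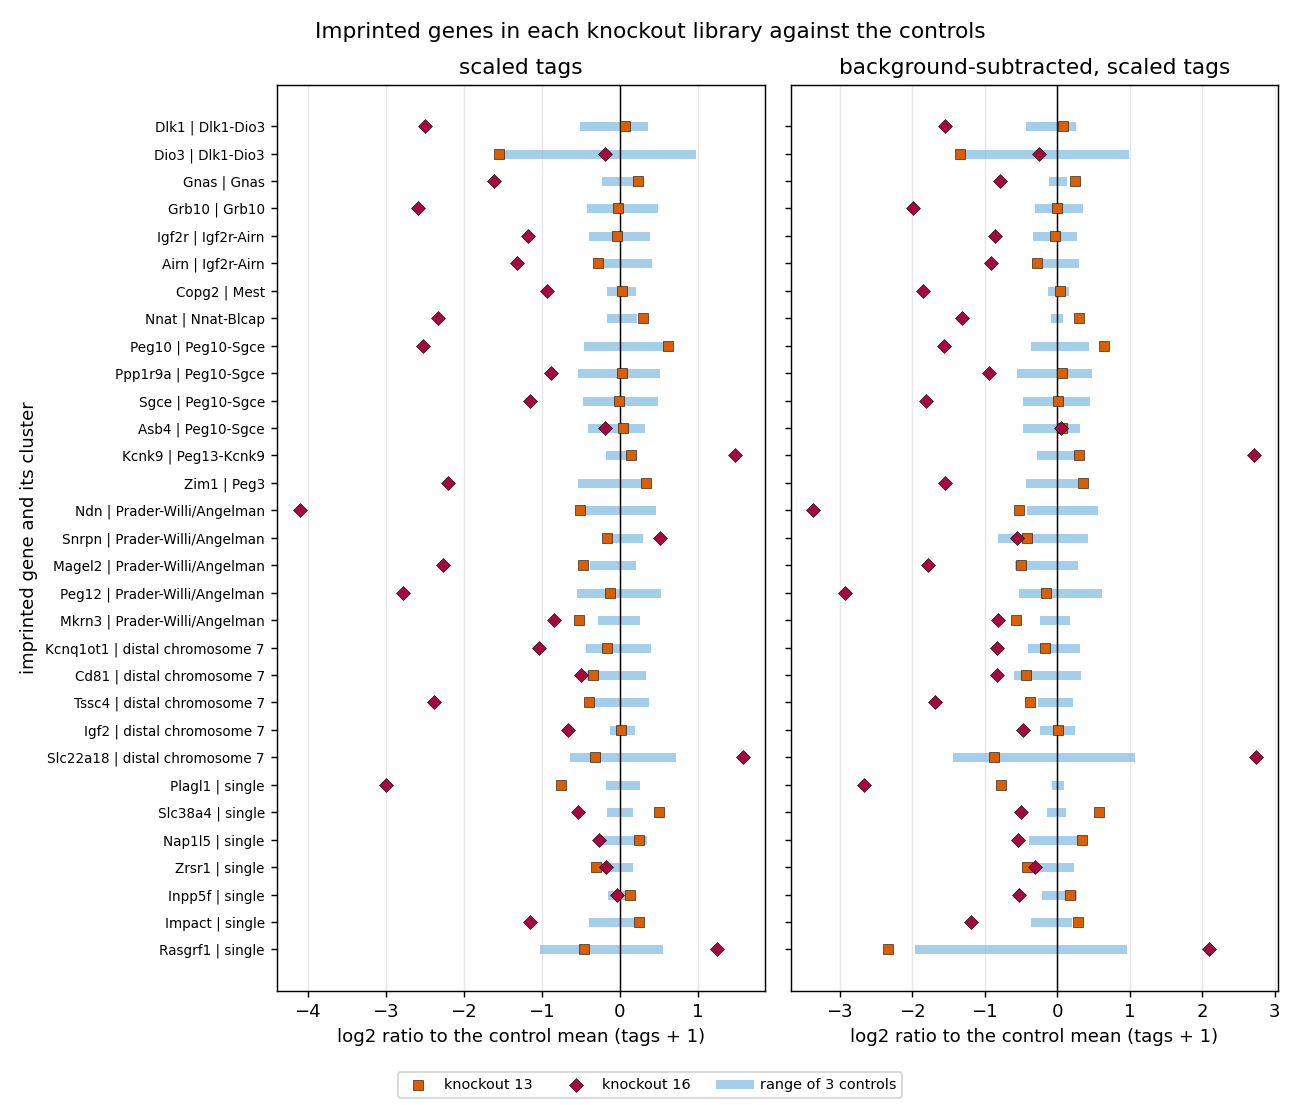
Log2 ratio of each knockout library to the control mean, on tags plus 1, for the 31 imprinted genes by cluster, on scaled tags (left) and with the receptor-gene background taken off (right); bars span the 3 controls. Knockout 13 (squares) lies in or near the control range for most genes and knockout 16 (diamonds) left of it, with Plagl1 and Ndn left of it in both.

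When the test was run without knockout 13, which leaves a single knockout library that is assumed to vary like the controls, 16 imprinted genes were lower and Kcnk9 higher at an adjusted p under 0.05. Of all genes, 16.6% were then lower and 6.28% higher. With background taken off as well, 7 of the 31 were lower (Dlk1, Zim1, Ndn, Copg2, Grb10, Gnas and Plagl1) and Kcnk9 was higher, where 11.1% of all genes were lower and 3.97% higher. Without knockout 16, none of the 31 passed, where 0.016% of all genes were lower. Plagl1 then had a log2 change of -0.80 with an unadjusted p of 0.0233, and Ndn one of -0.52 with an unadjusted p of 0.184. Of the 31 log2 changes, 13 had the other sign without knockout 16.

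Paternally and maternally expressed genes had similar medians. The 20 paternally expressed genes had a median log2 change of -0.59 on scaled tags and -0.48 with background taken off, and the 11 maternally expressed genes -0.48 and -0.43. In knockout 13 the medians were -0.15 for paternally and 0.02 for maternally expressed genes, and in knockout 16 they were -1.18 and -1.02. Of the paternally expressed genes 17 were negative and 3 positive, and of the maternally expressed genes 9 and 2. The 9 genes of restricted imprinting, most of them in the maternal group, had a median of -0.43 on scaled tags and -0.39 with background taken off. No test of a difference between the alleles was made, since the genes of a group are not replicates.

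In the controls, level per kilobase of region, with background taken off, ranked the imprinted genes from Nnat to Kcnk9. Nnat had 542.4 ± 7.4 tags per kilobase (SD, n = 3), far above the next genes. Ndn followed with 117.0 ± 41.6, Dlk1 with 68.2 ± 13.5 and Peg10 with 63.1 ± 16.6, and the ranges of mean ± SD overlapped between Ndn and Dlk1 and between Dlk1 and Peg10. Tssc4 came next with 26.2 ± 3.4, and then a group of close values held Grb10 at 15.1, Plagl1 at 14.6, Gnas at 14.3, Zim1 at 13.6, Magel2 at 12.49 and Peg12 at 10.99. The lowest were Rasgrf1 and Kcnk9, with 0.18 and 0.17. Regions include introns, so a gene without introns such as Ndn ranks high on this scale. Among the controls the 27 imprinted genes with a mean of at least 20 scaled tags varied by a median of 23.1% (SD over mean), against 18.2% for all genes at that level.

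Genes that set or keep imprints were given by a list of 20, of which 19 were tested and none was called in either direction. Their median log2 change was -0.52, with 15 negative and 4 positive, and the library medians were 0.07 in knockout 13 and -1.20 in knockout 16. Tet3, which oxidises methylated cytosine, was at 337.5 and 180.2 scaled tags in knockouts 13 and 16, against 363.8, 316.8 and 515.2 in controls 9, 10 and 12. Smchd1, a chromatin protein that represses imprinted clusters, was at 364.6 and 176.6, against 330.9, 343.3 and 478.4. Both had knockout 13 among the controls and knockout 16 below them. Of 30 further imprinted genes 20 were tested, with no call, a median of 0.05, 11 positive and 9 negative. Cdkn1c, a maternally expressed inhibitor of the cell cycle, was at 611.3 and 97.6 scaled tags in knockouts 13 and 16, against 694.7, 582.6 and 543.2 in controls 9, 10 and 12, a log2 change of -1.34 (unadjusted p = 0.0635). Gab1, a signalling adaptor, was at 364.6 and 191.1, against 274.0, 284.0 and 440.4. The groups overlapped in both genes through knockout 13.

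Markers of the cells in the gland also differed between the libraries, and their part in the imprinted gene levels was not tested. The labels call the samples epithelial pituitary cells, and all 10 markers of pituitary progenitors were present, with sums of 1412 and 421.4 scaled tags in knockouts 13 and 16, against 881.1 to 1241 in the controls. Their library medians were 0.53 in knockout 13 and -1.84 in knockout 16, the same order as for Nnat and Peg10. Markers of other cells were also read in every library. For head mesenchyme, where Plagl1, Dlk1 and Igf2 are also expressed in the embryo, 6 of 10 markers were below every control in both knockouts on both scales. Of all genes, 6.85% were so on scaled tags and 7.64% with background taken off. The list summed to 1119 and 537.6 scaled tags in knockouts 13 and 16, against 1232 to 1478 in the controls. Col1a1, a fibrillar collagen chain and chosen after its values were seen, was at 94.3 and 60.4, against 152.7, 176.2 and 151.0 in controls 9, 10 and 12. Prrx2, a homeobox factor of the same list, was above every control on both scales, at 29.1 and 59.9 scaled tags in knockouts 13 and 16, against 25.4, 23.7 and 12.7 in controls 9, 10 and 12. Neuronal and ventral diencephalon markers, from tissue where Ndn and Magel2 are expressed, summed to 901.7 and 778.7 in the knockouts, against 1061 to 1235 in the controls. Of these 9 markers 3 were below every control in both knockouts on scaled tags, Map2 and the hypothalamic factors Nkx2-1 and Rax. Of all genes, 6.85% were. With background taken off 4 of the 9 were, and 7.64% of all genes. Nkx2-1 was at 21.5 and 10.3, against 61.4, 53.9 and 50.8, and Rax at 13.2 and 6.20, against 38.9, 40.2 and 29.2. Of the same list, the neuronal RNA-binding genes Elavl3 and Elavl4 were above every control in knockout 16 and not in knockout 13. Elavl4 was at 97.7 and 171.4 in knockouts 13 and 16, against 125.8, 112.3 and 68.5 in the controls, and 3 of the 9 log2 changes were positive. Hormone cell markers summed to 98.4 and 240.6 scaled tags in knockouts 13 and 16, against 446.2 to 576.2 in the controls. With background taken off they summed to 71.5 and 352.8, against 337.2 to 504.2, so that knockout 16 lay among the controls. None of the markers of these 4 lists that were tested had 0 deposited tags in any library. Skeletal muscle markers were positive in 7 of 7, with library medians of 0.82 in knockout 13 and 0.59 in knockout 16. They summed to 272.4 and 343.9, against 149.8 to 263.9 in the controls, most of it Ttn. The other markers of that list were low, and 2, 1 and 2 of the 7 had 0 tags in controls 9, 10 and 12. Its medians thus rest on genes with few reads. Endothelial markers summed to 582.2 and 739.0 in the knockouts, against 604.8 to 617.3 in the controls, and red blood cell markers to 259.9 and 445.6, against 354.8 to 704.3. With background taken off, red blood cell markers summed to 203.0 and 673.5 in knockouts 13 and 16, against 304.0 to 523.6. Knockout 16 was then above every control for that list.

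**Figure D5:**
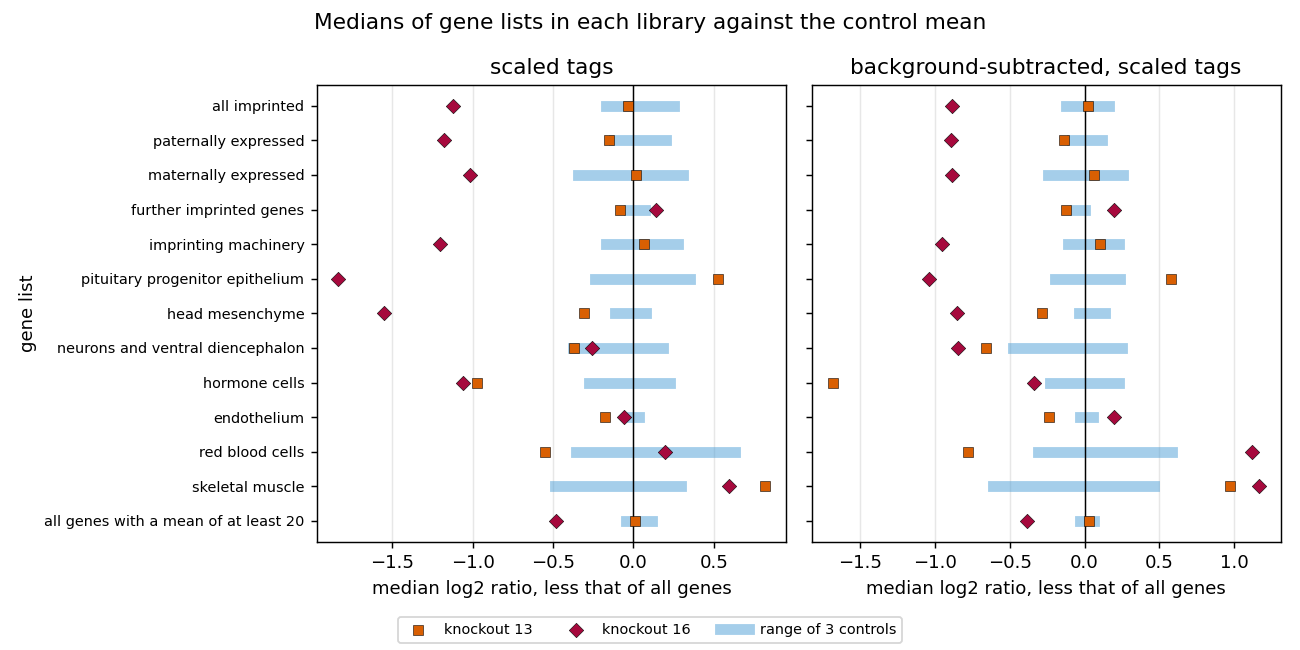
Median log2 ratio of gene lists to the control mean in each library, less the median of all genes, on scaled tags (left) and with the receptor-gene background taken off (right); bars span the 3 controls. The imprinted genes lie at -0.03 in knockout 13 and -1.12 in knockout 16 on scaled tags, and the progenitor and mesenchyme lists also lie low in knockout 16. The muscle list, mostly of genes with few reads, lies above the controls in both knockouts.

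Of the 31 imprinted genes, 6 are among the 1140 rows of the authors' deposited table of changed genes, where the whole series holds 20097 gene symbols. In the authors' deposited table Dlk1 has a log2 fold change of 2.32 (p = 0.000175) and Peg10 one of 1.58 (p = 0.00136), with genotype values of 20 in KO and 4 in WT for Dlk1 and of 18 in KO and 6 in WT for Peg10. The authors' deposited table has Plagl1 at -0.45 (p = 0.00029), with 22 in KO and 30 in WT. Zrsr1, Nnat and Inpp5f stand in the authors' deposited table at -0.37, -0.13 and -0.10. Its columns of linear fold change differ, with 5.0 in the first and 3.49 in the second for Dlk1, and 3.0 and 2.11 for Peg10. For Plagl1 they give 0.7 and 0.52, for Zrsr1 0.8 and 0.55, for Nnat 0.9 and 0.65, and for Inpp5f 0.9 and 0.66. For the genotype values the sources used here give no unit and no libraries, and for the p-values no adjustment. The signs for Plagl1 and Zrsr1 are the same as in both knockout libraries above on scaled tags. Nnat and Inpp5f were negative only in knockout 16, with log2 ratios to the control mean of 0.30 and 0.13 in knockout 13. Dlk1 and Peg10 were positive only in knockout 13, at 0.07 and 0.61, and Dlk1 lay among the controls there. On the deposited scale Dlk1 was at 1063.64 and 240.91 tags in knockouts 13 and 16, against 490.91, 561.82 and 680.00 in the controls.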

How the data were processed

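RNA-seq of 5 e12.5 pituitary libraries was analysed, 2 knockout and 3 control, grouped by genotype in the labels. Per the file headers, the deposited signal is tags per 10000000 total tags over a gene region. Bowtie2, HOMER, edgeR and the build mm9 appear, without roles or versions, in the submitters' processing notes. For the genes they listed as changed, the authors deposited a log2 fold change, a ratio as linear fold change, a p-value and genotype values with no stated unit, treated as a score. All deposited values were whole multiples of 10/11 within 0.01 reads (100.00%), as for 11000000 tags a library, and count tests on these reads were an alternative.

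The longest region per symbol was kept. Tags were divided by TMM factors (1.31 and 1.76 in knockouts 13 and 16, 0.61, 1.00 and 0.72 in controls 9, 10 and 12) because the median gene was 0.97 higher in knockouts on the deposited log2 scale. Log2(scaled tags + 1), which understates changes of low genes, was tested with limma 3.58.1 (R 4.3.3, trend) over 19200 genes (mean of at least 1), all 31 imprinted genes among them. P-values were Benjamini-Hochberg adjusted over all genes, with a threshold of 0.05, and they test the change before the median is taken off. Background was the tags per kilobase of 406 autosomal olfactory and vomeronasal receptor genes, times region length. After it was taken off, TMM factors were estimated anew. They were 1.51 and 1.00 in knockouts 13 and 16, and 0.65, 1.09 and 0.94 in controls 9, 10 and 12. Alternatives were edgeR 4.0.16, DESeq2 1.42.0, other scalings, filters and pseudocounts, and leaving out each library. The fit was also run on simulated counts with the spread of the controls. These had no background that differed between libraries and no added difference between knockouts 13 and 16. They therefore do not gauge how the fit does on these libraries. Poisson intervals at 95% cover counting error only. P-values measure the spread between these libraries, which the labels call separate biological replicates. The imprinted genes and all lists were chosen with earlier results of these data known. Values of every library are given for genes with a control mean of at least 20 scaled tags; from the lists of imprinting machinery and further imprinted genes, called genes or else the 2 of highest control mean are named. Cell type markers named were chosen after their values were seen. No column was left unmapped.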

Additional observations from a re-analysis of the deposited data

How the results depend on the processing

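No paired analysis was made, because no litter was assigned to the libraries. The library numbers 9, 10 and 12 of the controls and 13 and 16 of the knockouts share none, and whether they track litters is not stated. No imprinted gene was called with all 5 libraries under any scaling, filter, pseudocount or tool tried, where limma and edgeR called 0 genes and DESeq2 25. Leaving out 1 library gave 0 to 4398 genes called and 0 to 17 imprinted genes. The highest counts came without knockout 13; without knockout 16 there were 3 genes and none imprinted, and without any 1 control 0 genes. With background also taken off, both chosen after the data were seen, leaving out knockout 13 gave 2700 genes and 8 imprinted ones.

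Over the libraries left out in turn, the median log2 change ranged from -1.13 to -0.035 for all imprinted genes (-0.93 and -0.021 with background taken off, without knockout 13 and without knockout 16), from -1.18 to -0.16 for paternally expressed genes (-0.93 and -0.15; -0.78 without control 9), from -1.05 to -0.014 for maternally expressed genes (-0.93 and 0.003), from -1.23 to 0.031 for the imprinting machinery (-0.99 and 0.053), and from -0.10 to 0.13 for further imprinted genes (0.18 and -0.13). That last median was 0.11 on the deposited scale and 0.14 with a minimum mean of 5.

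With all libraries the direction turned for Slc38a4 (0.011 on the deposited scale, 0.037 with background taken off, 0.022 with the minimum mean of 5, 0.015 in edgeR, 0.006 in DESeq2), Nap1l5 (0.034 on the deposited scale, 0.044 with the minimum mean of 5), Inpp5f (-0.17 with background taken off, -0.005 with no filter, -0.007 in edgeR, -0.009 in DESeq2), Snrpn (-0.41 with background taken off, -0.57 over the shorter region) and Asb4 (0.086 with background taken off). The causes were not tested.

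Leaving out single libraries gave ranges that cross 0 for Slc22a18 (-0.26 to 1.55), Dlk1 (-2.58 to 0.052), Zim1 (-2.30 to 0.32), Snrpn (-0.20 to 0.40), Peg10 (-2.58 to 0.63), Asb4 (-0.29 to 0.10), Ppp1r9a (-0.96 to 0.026), Nnat (-2.45 to 0.25), Gnas (-1.73 to 0.19), Impact (-1.26 to 0.22), Slc38a4 (-0.66 to 0.45), Rasgrf1 (-0.39 to 1.24), Nap1l5 (-0.38 to 0.22) and Inpp5f (-0.16 to 0.13). With background taken off and knockout 16 left out, values of the other sign were -0.55 for Slc22a18, 0.064 for Dlk1, 0.34 for Zim1, -0.38 for Snrpn, 0.003 for Copg2, 0.64 for Peg10, 0.014 for Sgce, 0.054 for Asb4, 0.069 for Ppp1r9a, 0.27 for Nnat, 0.21 for Gnas, 0.27 for Impact, 0.54 for Slc38a4, -1.97 for Rasgrf1 and 0.32 for Nap1l5. With knockout 13 left out instead they were -0.55 for Snrpn, 0.006 for Asb4 and -0.59 for Inpp5f. Plagl1, Ndn, Magel2 and Tssc4 were negative under every alternative run, from -3.11 to -0.80 for Plagl1 and -4.17 to -0.52 for Ndn over the libraries left out. Igf2, Kcnq1ot1, Cd81, Dio3, Mkrn3, Peg12, Grb10, Igf2r, Airn and Zrsr1 were also negative wherever they were tested. All these changes are relative to the median gene of each setting, so the same sign across scalings was largely set in advance. On the deposited scale the median gene was itself 0.97 higher in knockouts. That shift is larger in size than the change there of Airn (-0.74) and Zrsr1 (-0.205). It is smaller than that of Plagl1 (-1.84) and Ndn (-2.28). With 2 knockouts that differ this much, depth limited low genes such as Dio3 and Mkrn3, which were at the level of a few reads.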
